A study of Mus musculus with 4 samples.

Results

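The genes described are 9 enzymes of amino acid breakdown and the urea cycle (Tat, Tdo2, Hpd, Got1, Gpt2, Cps1, Ass1, Asl and Arg1), of 21911 annotated protein-coding genes. They were chosen by name, with earlier results of these data known. Each was given every called peak with any base within 50 kb of its start site, whichever gene the deposited annotation assigned the peak to. Glucocorticoid receptor (GR) and E2A ChIP-Seq was performed on livers of male C57BL/6 mice with the genotype E47+/+, fed chow and collected at ZT10 (10 h after lights on), with 2 replicates per ChIP and 4 libraries in all. E2A stands for the proteins encoded by Tcf3, of which E47 is one, so both ChIPs came from mice that carry E47. The paper states that the E2A ChIP was done on the livers used for GR, so libraries of the 2 ChIPs may share a liver. The labels call the livers untreated, whereas a supplementary description in the study calls them Dex-treated. The free-text description of both E2A samples names a GR ChIP, and for replicate 2 also E47-/-, and titles, antibody and genotype were followed here. Whole liver holds several cell types, and a region called for both factors does not show that both were bound in the same cell.

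The liver uses amino acids taken up or released from protein in fasting to make glucose, and their nitrogen leaves the body as urea. GR, a nuclear receptor, is bound by corticosterone, whose level rises before the active phase, and is classically known to induce several enzymes of this kind, with Tat as the textbook example. E47 is a basic helix-loop-helix factor that binds E-boxes (CANNTG), whereas GR dimers bind the glucocorticoid response element (GRE), a palindrome with the arms GNACA and TGTNC and 3 bases between them. The question of the study was whether E2A sits at the same promoters and enhancers as GR in liver.

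All 9 genes had a GR peak at the promoter in both replicates, whereas only 3 (Tat, Gpt2 and Ass1) had an E2A promoter peak in both. Among all protein-coding genes a GR promoter peak in both replicates was called for 5.17%, and an E2A promoter peak in both for 2.07%. Promoters here are those of the deposited annotation. Within 1 kb of the GENCODE start, 8 of the 9 genes, all but Asl, had GR in both replicates (5.35% of all genes). For E2A these were the same 3 genes (2.44% of all genes). Of the 25 GR regions near these genes that met an E2A region, 20 lay away from a promoter, and so did 50 of all 63 GR regions near them. The share that met E2A was 40.0% away from promoters and 38.5% at promoters. Over the genome, 1365 of the 2702 GR regions that met E2A lay away from a promoter, as did 4362 of all 8795. Of the 9 genes, 7 had a region within 50 kb that was called in all 4 libraries, against 4.5% of all genes, and Got1 and Arg1 had none. A region here is a run of peaks from the libraries that share at least 1 bp. Many of all protein-coding genes are silent in liver, so these background percentages describe the genome and not genes active in hepatocytes.

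**Figure D1:**
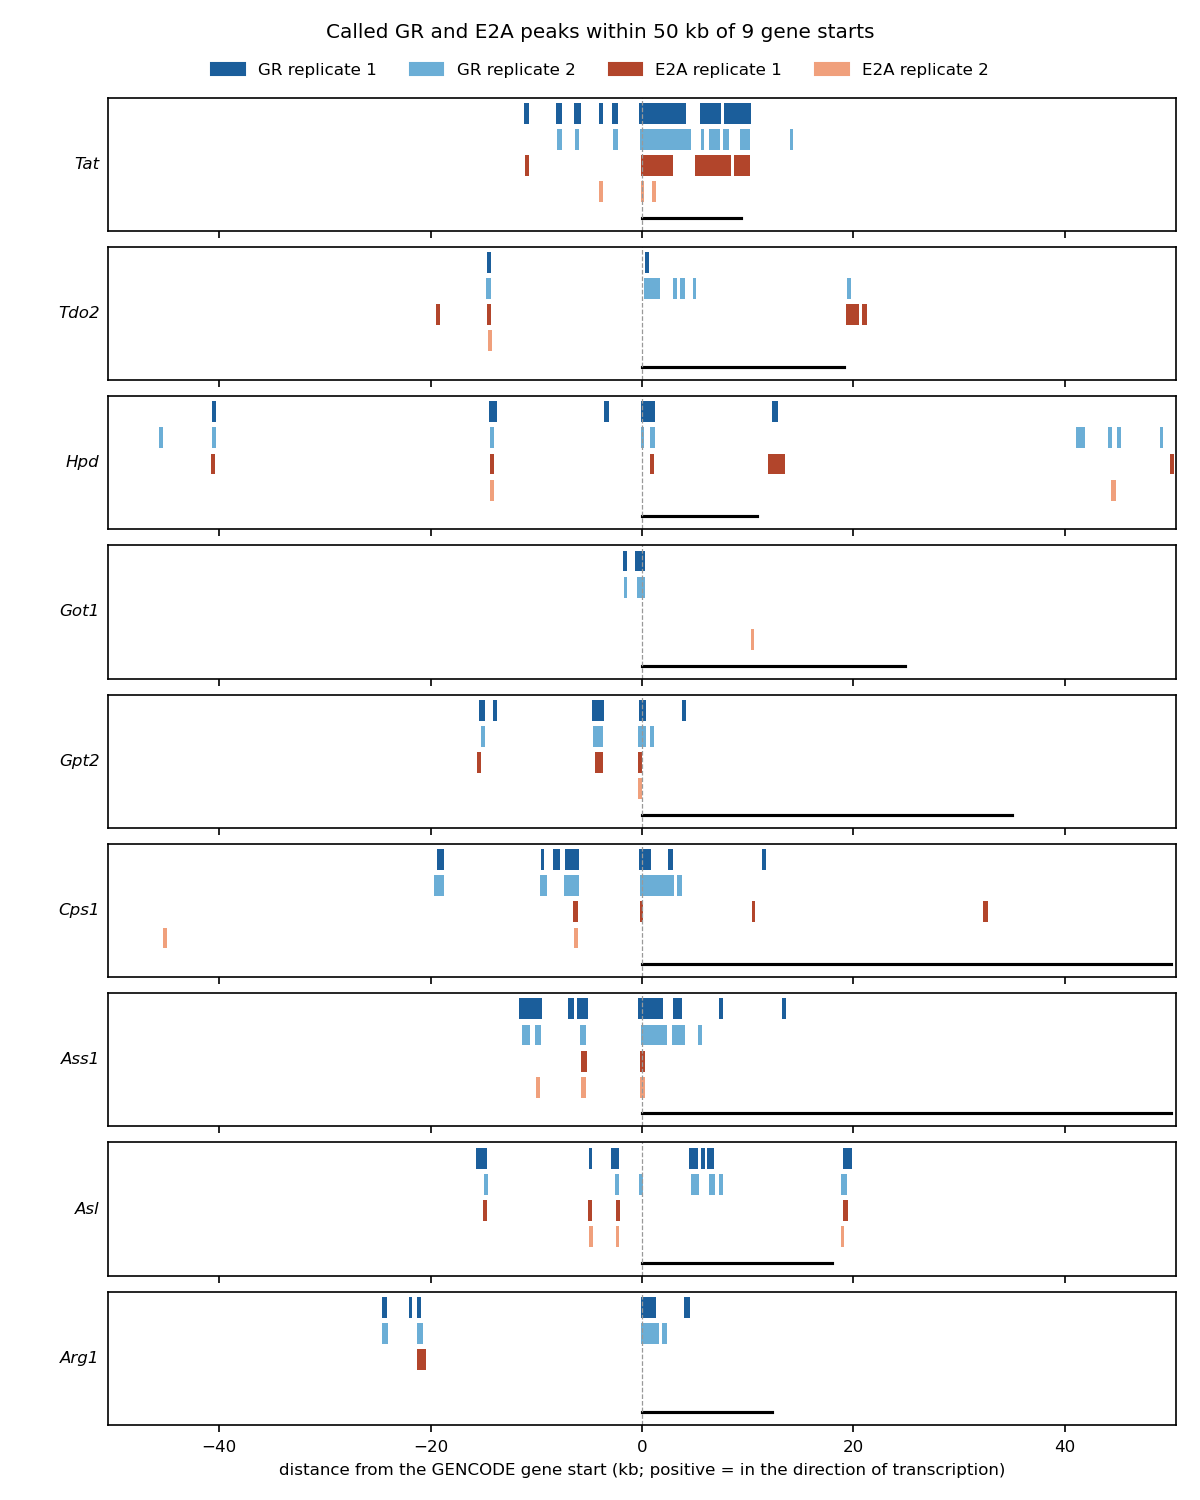
Called peaks of the 4 libraries within 50 kb of the start of each gene, with the distance from the GENCODE start in kb on the x axis (positive in the direction of transcription), 1 coloured row per library and the gene body as a black line. Blue GR peaks of both replicates stand at or just after the start of 8 genes, while at the start of Asl only replicate 2 has one and its annotated promoter peaks stand further into the gene, and red E2A peaks are fewer, with none from replicate 2 near Arg1.

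The regions called in all 4 libraries are the clearest case of GR and E2A at one place, and the stretch that the peaks of all 4 libraries have in common is shown for 6 of them. The sequences are from the plus strand of mm10, and capitals mark E-boxes (CANNTG), the single GRE arm TGTTCT or its reverse complement, and palindromic GREs with at most 1 mismatch in their 8 fixed letters. Adjoining or overlapping matches run together. Stretches in an untranslated region were left out, and 2 stretches of over 300 bp were shortened to their central 300 bp.
Tdo2 chr3:81990510-81990739: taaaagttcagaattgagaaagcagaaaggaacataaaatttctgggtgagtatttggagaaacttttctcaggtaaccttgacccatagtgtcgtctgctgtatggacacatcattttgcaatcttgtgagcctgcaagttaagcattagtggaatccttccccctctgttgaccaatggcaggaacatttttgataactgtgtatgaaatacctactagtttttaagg
Hpd chr5:123196803-123197093: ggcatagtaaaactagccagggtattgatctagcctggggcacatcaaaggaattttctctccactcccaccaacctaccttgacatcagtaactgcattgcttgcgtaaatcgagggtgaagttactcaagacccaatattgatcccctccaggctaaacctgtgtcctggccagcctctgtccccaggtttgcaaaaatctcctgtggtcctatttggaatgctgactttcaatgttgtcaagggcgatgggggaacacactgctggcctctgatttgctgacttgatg
Gpt2 chr8:85492271-85492465: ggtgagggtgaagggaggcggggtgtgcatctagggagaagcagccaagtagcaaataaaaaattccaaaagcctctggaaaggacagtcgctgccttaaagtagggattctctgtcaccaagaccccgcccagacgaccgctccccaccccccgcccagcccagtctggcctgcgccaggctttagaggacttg
Cps1 chr1:67116599-67116898: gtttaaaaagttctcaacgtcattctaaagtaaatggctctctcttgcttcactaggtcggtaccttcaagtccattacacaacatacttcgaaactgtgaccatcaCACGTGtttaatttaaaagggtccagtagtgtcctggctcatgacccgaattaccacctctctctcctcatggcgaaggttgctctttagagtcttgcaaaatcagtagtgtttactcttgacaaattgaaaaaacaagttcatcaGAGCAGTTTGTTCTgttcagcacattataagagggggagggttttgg
Ass1 chr2:31464526-31464825: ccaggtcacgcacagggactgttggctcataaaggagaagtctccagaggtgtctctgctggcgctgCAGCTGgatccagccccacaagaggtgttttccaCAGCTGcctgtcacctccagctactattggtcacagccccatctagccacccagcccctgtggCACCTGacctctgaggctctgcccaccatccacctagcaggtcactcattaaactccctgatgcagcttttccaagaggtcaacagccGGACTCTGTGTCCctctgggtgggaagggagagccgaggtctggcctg
Asl chr5:130031449-130031719: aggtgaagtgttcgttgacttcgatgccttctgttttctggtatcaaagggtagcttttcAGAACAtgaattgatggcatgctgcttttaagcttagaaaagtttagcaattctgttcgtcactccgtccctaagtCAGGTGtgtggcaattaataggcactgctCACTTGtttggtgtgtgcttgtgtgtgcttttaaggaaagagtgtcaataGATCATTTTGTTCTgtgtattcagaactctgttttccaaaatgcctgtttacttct

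These stretches were not alike in the letters they hold. The Cps1, Ass1 and Asl stretches each held 1 palindromic GRE with 1 mismatch together with at least 1 E-box. The E-box of Cps1 was CACGTG, Ass1 had CAGCTG in 2 copies and CACCTG, and Asl had CAGGTG and CACTTG. The Tdo2, Hpd and Gpt2 stretches held no E-box, no TGTTCT and no palindromic GRE. The C/EBP letters TTGCNNAA was found once in the Tdo2, Cps1 and Asl stretches and 2 times in that of Hpd. TGTTTAC, the core letters read by FOX factors, was found in the Cps1 and Asl stretches. GC content ranged from 38.7% at Tdo2 to 59.0% at Ass1. All motifs were searched on both strands, a match describes the letters only, and the absence of these letters says nothing about the factor.

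Tat (ENSMUSG00000001670, chr8:109990437-109999803, plus strand) encodes tyrosine aminotransferase, which starts tyrosine breakdown. Within 50 kb of its start, 8 and 9 GR peaks were called in replicates 1 and 2, and 4 and 3 E2A peaks. These peaks covered 11682 and 9236 bp for GR, and 8249 and 993 bp for E2A. The E2A replicates were thus close in the number of peaks and far apart in the length they covered, since E2A replicate 1 had peaks of 2998, 3380 and 1492 bp over the gene and its 3′ end whereas the largest peak of replicate 2 was 412 bp. The GR promoter peaks were 4454 bp and 4816 bp wide and reached from upstream of the start far into the gene. E2A replicate 2 placed 2 small peaks of 260 and 412 bp within the same stretch. Upstream, 3 regions centred at -7825, -6099 and -2516 bp were called in both GR replicates and in neither E2A library. Each of the 3 held a palindromic GRE with 1 mismatch. E2A was called upstream only in single libraries, at -10941 bp with GR replicate 1 and E2A replicate 1, and at -3897 bp with GR replicate 1 and E2A replicate 2.

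Hpd (ENSMUSG00000029445, chr5:123171807-123182727, minus strand) encodes 4-hydroxyphenylpyruvate dioxygenase, which acts on the product of Tat. It had 5 and 9 GR peaks and 5 and 2 E2A peaks, so that replicates of 1 factor differed by up to 4 peaks. The promoter peak was 1341 bp in GR replicate 1, and in replicate 2 the same stretch was split into a peak of 291 bp at the start and one of 543 bp over exon 3. An E2A peak of 285 bp in replicate 1 lay over exon 3, inside the GR peaks. The region centred at -14057 bp was called in all 4 libraries, with peaks of 769, 340, 301 and 305 bp in GR 1, GR 2, E2A 1 and E2A 2. A region at -40569 bp, which the annotation assigned to Psmd9, was called in both GR replicates and in E2A replicate 1. Of the 9 GR peaks of replicate 2, 6 carried the symbol of a neighbour (Rhof, Setd1b or Psmd9), and 5 of these 6 were not called in GR replicate 1.

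Tdo2 (ENSMUSG00000028011, chr3:81957090-81976202, minus strand) encodes tryptophan dioxygenase, which opens the indole ring of tryptophan and is made mainly in liver. It had 2 and 6 GR peaks and 4 and 1 E2A peaks. The 3 intronic GR peaks at 3075, 3812 and 4963 bp were called in GR replicate 2 only. The promoter peak was 372 bp in GR replicate 1 and 1432 bp in replicate 2, and no E2A promoter peak was called. The region shared by all 4 libraries was centred at -14497 bp, with widths of 431, 452, 345 and 303 bp in GR 1, GR 2, E2A 1 and E2A 2. The deposited annotation gives it to the neighbouring gene Asic5, so it is absent when peaks are taken by the symbol Tdo2. Near the 3′ end, at 19895 bp, an E2A replicate 1 peak of 1187 bp met a GR replicate 2 peak of 316 bp.

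Got1 (ENSMUSG00000025190, chr19:43499752-43524605, minus strand) encodes the cytosolic aspartate aminotransferase. It had 2 GR peaks in each replicate, 0 E2A peaks in replicate 1 and 1 in replicate 2. Both GR regions were called in both replicates, the promoter with peaks of 912 and 814 bp and a region at -1611 bp with peaks of 360 and 316 bp. The E2A peak, of 273 bp, lay alone in intron 2 at 10398 bp. Got1 was the only one of the 9 genes without a GR region that met an E2A peak.

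Gpt2 (ENSMUSG00000031700, chr8:85492576-85527560, plus strand) encodes the mitochondrial alanine aminotransferase, which passes the nitrogen of alanine on and yields pyruvate for glucose synthesis. It had 5 and 4 GR peaks and 3 and 1 E2A peaks. Its promoter was called in all 4 libraries, with widths of 719, 768, 425 and 251 bp in GR 1, GR 2, E2A 1 and E2A 2. The E2A promoter peaks ended at 85492584 and 85492465, at or before the gene start, whereas both GR peaks ran on into the gene. Regions at -4149 and -15268 bp were called in both GR replicates and in E2A replicate 1. Each held a palindromic GRE without a mismatch, and in both cases this GRE was inside the GR peaks and outside the E2A peak. The region at -4149 bp held another GRE, with 1 mismatch at -3986 bp, which lay under both GR peaks and the E2A peak.

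**Figure D2:**
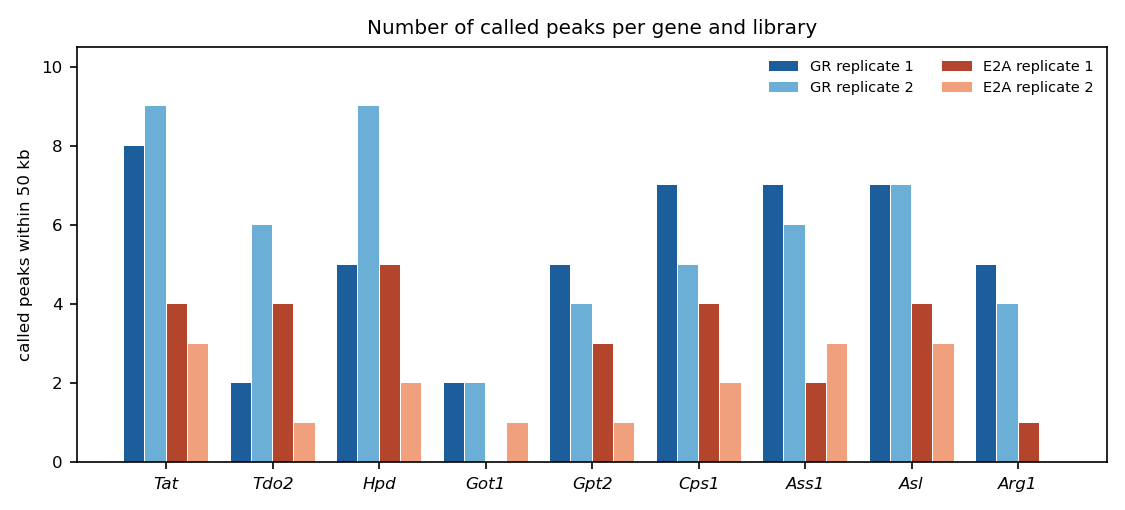
Number of called peaks within 50 kb (y axis) for each gene (x axis), with 1 bar per library. GR bars range from 2 to 9 and E2A bars from 0 to 5, and the replicates of Tdo2 and Hpd differ most, with 2 against 6 and 5 against 9 GR peaks.

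Cps1 (ENSMUSG00000025991, chr1:67123026-67231259, plus strand) encodes carbamoyl phosphate synthetase, the entry step of ammonia into the urea cycle in mitochondria. It had 7 and 5 GR peaks and 4 and 2 E2A peaks. The GR peaks covered 4740 and 6745 bp and the E2A peaks 1656 and 716 bp. The GR promoter peaks were 1091 and 3155 bp wide, and an E2A promoter peak of 357 bp was called in replicate 1 only. The region at -6648 bp was called in all 4 libraries, with widths of 1321, 1422, 517 and 344 bp in GR 1, GR 2, E2A 1 and E2A 2, both E2A peaks lying inside the GR peaks. Regions at -19179 and -9304 bp were called in both GR replicates without E2A. Conversely, 3 regions were called for E2A alone, at -45104 bp (replicate 2, assigned to Lancl1) and at 10529 and 32525 bp in introns 1 and 7 (replicate 1). Each of these was seen in 1 library.

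Ass1 (ENSMUSG00000076441, chr2:31470207-31520672, plus strand) encodes argininosuccinate synthase, which joins citrulline and aspartate. It had 7 and 6 GR peaks and 2 and 3 E2A peaks. Both its promoter and a region at -5667 bp were called in all 4 libraries. The promoter peaks were 2398 and 2481 bp wide for GR, and 457 and 456 bp for E2A, so that the E2A peaks stood over the start while the GR peaks went on through the first exon into intron 1. At -5667 bp the widths were 1031, 643, 512 and 490 bp in GR 1, GR 2, E2A 1 and E2A 2. A region at -10566 bp, over the end of the neighbouring gene Hmcn2, was called in both GR replicates and in E2A replicate 2. A region at 3439 bp in intron 1 was called in both GR replicates without E2A.

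Asl (ENSMUSG00000025533, chr5:130011258-130029247, minus strand) encodes argininosuccinate lyase, which yields arginine and fumarate. It had 7 GR peaks in each replicate and 4 and 3 E2A peaks. In the deposited annotation the Asl start was at 130024331, which is 4916 bp inside the GENCODE gene. The GR promoter peaks, of 800 and 674 bp, were at that start. At the GENCODE start, GR replicate 2 alone had a peak, of 348 bp, which was assigned to the promoter of Crcp. Of the 7 E2A peaks near Asl, 5 lay in introns of the neighbouring gene Crcp and 2 just past the 3′ end of Asl. The region at -2559 bp, in intron 1 of Crcp, was called in all 4 libraries with widths of 757, 414, 271 and 293 bp in GR 1, GR 2, E2A 1 and E2A 2. The region at 19327 bp, past the 3′ end of Asl and upstream of Gusb, to which the deposited annotation assigned it, was also called in all 4, but the stretch common to the 4 libraries was only 30 bp. Another region, at -4887 bp in Crcp, was called in both E2A replicates and in GR replicate 1. Asl had 3 E2A regions called in both replicates, the most among the 9 genes, and none of them carried its symbol.

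Arg1 (ENSMUSG00000019987, chr10:24915221-24927484, minus strand) encodes liver arginase, which releases urea. It had 5 and 4 GR peaks, 1 E2A peak in replicate 1 and 0 in replicate 2. The GR promoter peaks were 1416 and 1744 bp wide with no E2A peak. The region at -20876 bp was called in both GR replicates, with peaks of 404 and 540 bp, and in E2A replicate 1, with a peak of 806 bp. A region at -24307 bp was called in both GR replicates without E2A. Arg1 and Got1 were the genes with the fewest E2A regions, 1 each, a number that 28.7% of all genes reach.

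The 9 genes thus differed in how many regions they had for GR. Counted within the GR ChIP, Hpd had 10 regions, Tat and Asl 9, Ass1 8, Cps1 7, Tdo2, Gpt2 and Arg1 6 and Got1 2. Neighbours in this order differ by at most 1 region apart from Got1, and the replicates of 1 gene differed by up to 4 peaks. As many GR regions as Hpd had were found for 0.31% of all genes, as many as Tat and Asl for 0.561%, and as many as Got1 for 22.4%. At least 3 GR regions were called at 8 of the 9 genes (all but Got1), against 12.6% of all genes. For E2A, Hpd had 6 regions, Tat and Cps1 5, Tdo2 and Asl 4, and Gpt2 and Ass1 3. The medians were 7 GR and 4 E2A regions for the 9 genes and 0 for both factors over all genes. These counts follow the 50 kb window and include peaks that the deposited annotation assigned to other genes. By symbol, Hpd and Asl had 3 GR peaks in each replicate, and Tat 8 and 9. For E2A, Hpd had 2 and 1 by symbol, Asl 0 in each replicate, and Tat 4 and 3. The order of the genes thus depended on how peaks were assigned.

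The GR promoter peaks of these genes were wide. Their median width was 1091 bp in replicate 1 and 1432 bp in replicate 2, whereas the median of all promoter peaks in these libraries was 386 and 440 bp. In each GR replicate, 8 of the 9 genes lay above that median and 5 were wider than 1000 bp, a width that 4.89% and 6.96% of all promoter peaks exceeded. The genes below the median were not the same in both replicates, namely Tdo2 with 372 bp in replicate 1 and Hpd with 291 bp in replicate 2. Tat, Cps1, Ass1 and Arg1 were wider than 1000 bp in both replicates. The E2A promoter peaks were not wide as a group, with a median of 441 bp over 4 genes in replicate 1 and 260 bp over 3 genes in replicate 2, against 418 and 380 bp for all promoter peaks. Only the Tat peak of replicate 1 passed 1000 bp. Taking all regions and not only promoters, 15 of 63 GR regions near the 9 genes (23.8%, exact 95% Clopper-Pearson interval 14.0 to 36.2) were wider than 1000 bp, against 6.32% of 8795 GR regions in the genome. These and the following intervals cover counting error only. They treat regions as independent, which regions of 1 gene are not, so they may be too narrow. The height of the peaks is not in the deposited lists.

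**Figure D3:**
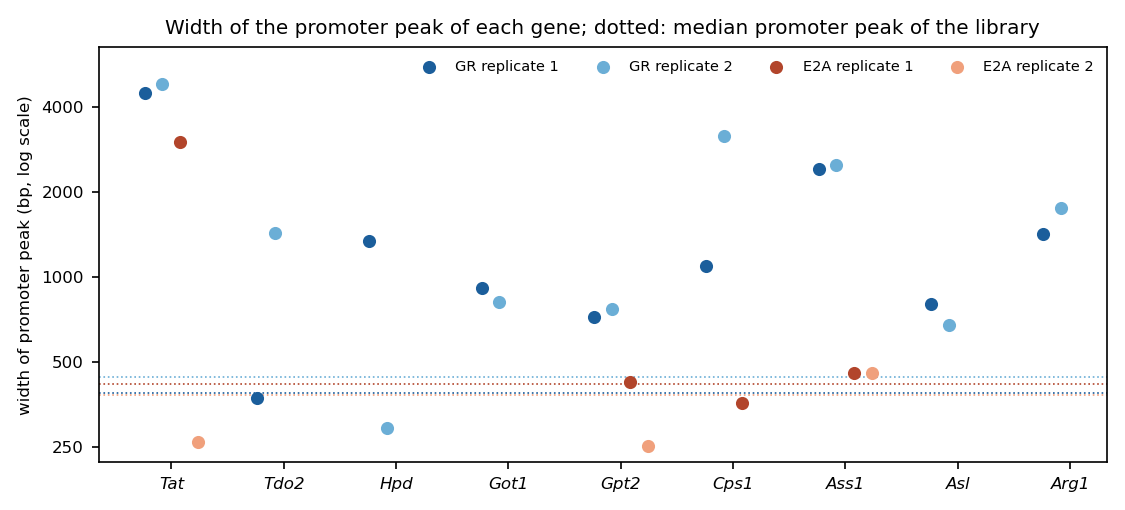
Width of the promoter peak in bp (y axis, log scale) for each gene (x axis), with 1 point per library and no point where no promoter peak was called. The dotted lines, at 380 to 440 bp, are the medians of all promoter peaks of the libraries, and both GR points lie above them for all genes except Tdo2 and Hpd, where 1 replicate does not.

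Within 50 kb, GR peaks were called in both replicates for all 9 genes (21.4% of all genes), and E2A peaks in both for 7 (11.4% of all genes), with Arg1 and Got1 as the exceptions. A GR region that met an E2A region in at least 1 library each was found at 8 genes (19.4% of all genes), all but Got1. When the peaks of all libraries were merged, 69 regions lay near the 9 genes, of which 38 were called for GR only, 7 for E2A only and 24 for both. Of these 69 regions, 31 were in both GR replicates, 10 in both E2A replicates, 9 in all 4 libraries and 32 in a single library. Over the genome, 30.7% of 8795 GR regions met E2A and 58.1% of 4783 E2A regions met GR. Near the 9 genes these were 25 of 63 and 25 of 32. Regions in all 4 libraries were 4.44% of all 10755, and for regions in a single library no genome share is given here. Near the 9 genes, the GR regions seen in both replicates and in no E2A library numbered 13. Counted within the GR ChIP, 19 of the 32 GR regions in both replicates met E2A (59.4%, interval 40.6 to 76.3), against 46.5% of all such GR regions, which lies inside the interval. All 10 E2A regions called in both replicates met a GR region (interval from 69.2%), against 71.7% of all such E2A regions, which also lies inside the interval.

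The positions of these regions were on both sides of the start sites. Of the 69 regions, 32 were centred upstream and 37 downstream, 39 lay within 10 kb, and the median distance was 7440 bp. The deposited annotation named the member gene for 53 of them and another gene for 16, and 8 of those 16 were shared by GR and E2A. Promoters made up 13 of the 63 GR regions (20.6%, interval 11.5 to 32.7), compared with 50.4% of all GR regions. GR regions met an E2A region in 25 of 63 cases (39.7%, interval 27.6 to 52.8), against 30.7% of all GR regions, which lies inside the interval. The same held at promoters, with 5 of 13 (38.5%, interval 13.9 to 68.4) against 30.2%, and away from promoters, with 20 of 50 (40.0%, interval 26.4 to 54.8) against 31.3%. From the side of E2A, 25 of 32 regions met GR (78.1%, interval 60.0 to 90.7), against 58.1% of all E2A regions, which is below the interval. The 32 regions come from 9 genes and are not independent. They were also wider, with 15.6% over 1000 bp against 3.32% of all E2A regions, and the part of width in this overlap was not tested. Regions in all 4 libraries were 9 of the 69 (95% interval of the share 6.14 to 23.3%) and 4.44% of all 10755 regions. Near these genes, 50.8% of the GR regions were called in both replicates (interval 37.9 to 63.6), against 31.1% of all GR regions, and these regions were also wider.

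How far the replicates agreed set the limit of the comparison. Of the 48 GR peaks of replicate 1 near the 9 genes, 33 had a counterpart in replicate 2 (68.8%, interval 53.7 to 81.3), against 65.6% of all peaks of that library. Of the 52 of replicate 2, 36 had one in replicate 1 (69.2%, interval 54.9 to 81.3), against 37.5% of all its peaks. For E2A, 10 of 27 peaks of replicate 1 (37.0%, interval 19.4 to 57.6) and 11 of 16 of replicate 2 (68.8%, interval 41.3 to 89.0) had a counterpart, against 27.9% and 59.8% of all peaks. A GR peak of replicate 1 met an E2A peak of replicate 1 in 43.8% of cases and of replicate 2 in 25.0%, and for GR replicate 2 these shares were 40.4% and 21.2%. The share differed more between the E2A libraries, of 4028 and 1892 peaks, than between the GR libraries. Without E2A replicate 1, 20.6% of the 63 GR regions met E2A, and without E2A replicate 2 34.9%. The share over all GR regions, 30.7%, used both lists of each ChIP. It was not computed per library or with a library left out, so these shares cannot be set against it.

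The whole lists held 4291 and 7334 GR peaks and 4028 and 1892 E2A peaks. The peaks near the 9 genes made up 1.12% and 0.709% of the GR lists and 0.67% and 0.846% of the E2A lists. The mean share was 0.914% ± 0.29 (SD, n = 2) for GR and 0.758% ± 0.124 (SD, n = 2) for E2A, a difference of 0.156 percentage points. This difference was smaller than the GR SD of 0.29 and larger than the E2A SD of 0.124. A two-sided exact permutation test of GR against E2A libraries gave p = 0.667. With 2 libraries per ChIP this test cannot go below 0.333, and it treated the 4 libraries as independent. The paper says that both ChIPs used the same livers, but which libraries share a liver is not given in the sources used here. Without GR replicate 1 the difference was -0.049, so the direction rested on that library.

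Palindromic GREs with at most 1 mismatch were found in a GR region of all 9 genes, against 15.9% of all genes. The 9 genes also had more GR regions (median 7 against 0), so more sequence was searched at them. In all there were 38 matches, of which 23 lay under the peaks of both GR replicates and 11 under an E2A peak. Tat and Asl had 7 matches each, Ass1 6, Gpt2 5, Hpd, Cps1 and Arg1 3, and Tdo2 and Got1 2. Only 8 of the 38 had no mismatch, in Hpd, Gpt2, Cps1, Ass1 and Got1. Of these 8, 7 lay under both GR replicates and 1, at Hpd, under an E2A peak. Of the 30 matches with 1 mismatch, 10 lay under an E2A peak, and the difference between these counts was not tested. Near the 9 genes an exact match was in 7 of 63 GR regions (11.1%, interval 4.59 to 21.6) and 1 of 32 E2A regions (3.12%). Over the genome it was in 4.96% of GR regions and 1.8% of E2A regions, so the share was lower for E2A there too. The 8 exact matches are shown with 4 flanking bases on each side, since they are the closest matches to the full palindrome. Capitals mark the 13 bases of the GRE, and the coordinates are those of these 13 bases.
Hpd chr5:123186087-123186099: gcagGAACATCTTGTCCcttg
Hpd chr5:123223235-123223247: gcagGGACAGGCTGTCCataa
Got1 chr19:43525027-43525039: gcttGGACACACTGTACccaa
Gpt2 chr8:85477506-85477518: acagGCACATAGTGTACagac
Gpt2 chr8:85488082-85488094: tgtgGGACAAGCTGTTCtgct
Cps1 chr1:67103726-67103738: aggtGTACACTCTGTCCagag
Cps1 chr1:67104043-67104055: agcaGTACACCCTGTTCagca
Ass1 chr2:31459588-31459600: ctcaGCACACTATGTTCatta

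The match of Got1 was upstream of the gene start, at -428 bp, inside both GR promoter peaks. It was the only exact match in a promoter peak, and the others were at -3366 and -40514 bp (Hpd), -15064 and -4488 bp (Gpt2), -19294 and -18977 bp (Cps1) and -10613 bp (Ass1). Both Cps1 matches lay in the region at -19179 bp that was called for GR in both replicates and not for E2A. The 7 matches of Tat all had 1 mismatch, and 2 of them, at 6152 and 7935 bp, lay under an E2A peak. Not every region called for GR in both replicates and not for E2A held a match. Those at -9304 bp (Cps1), 3439 bp (Ass1), -1611 bp (Got1) and 6554 bp (Asl) held none. The Tat matches shown lay in its 3 upstream regions called for GR in both replicates and not for E2A. The Arg1 match shown, 1 of 3 at this gene, lay in a region of the same kind at -24307 bp.
Tat chr8:109982431-109982443: caggGAACCTGATGTCCtaga
Tat chr8:109984227-109984239: aaagGAACACGGAGTTCagcc
Tat chr8:109987955-109987967: cgtaGTACAGGACGTTCtagc
Arg1 chr10:24951841-24951853: tttgGAACATCTAGTGCtgtt

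**Figure D4:**
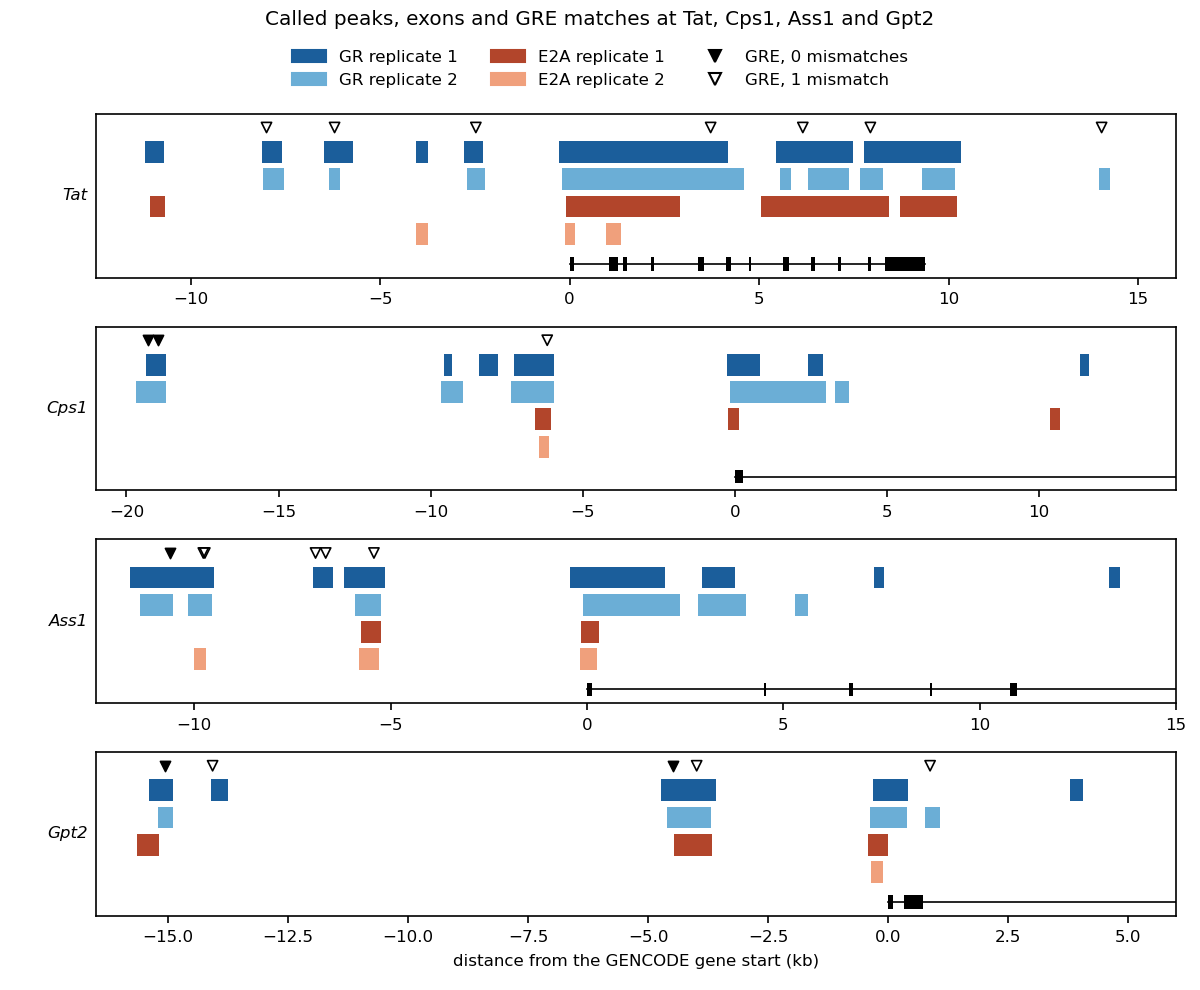
Called peaks (coloured bars, 1 row per library), exons (black boxes) and palindromic GRE matches in GR regions (triangles, filled for no mismatch and open for 1) at Tat, Cps1, Ass1 and Gpt2, by distance from the gene start in kb. Triangles stand over blue GR peaks, and over red E2A peaks some open triangles are seen and none of the 5 filled ones.

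Wider regions hold more matches, and the regions of these genes were wide, so motifs were also counted in the central 200 bp of regions of at most 2000 bp. There, 10 of 57 GR regions held a palindromic GRE (17.5%, interval 8.75 to 29.9), against 15.8% of 8647 GR regions, whereas over whole regions the shares were 46.0% (interval 33.4 to 59.1) and 26.8%. With width set equal, the GRE share of all GR regions lay inside the interval of that near the 9 genes. For GR regions outside promoters the order was the other way, with 10 of 47 (21.3%, interval 10.7 to 35.7) against 25.7%, which also lay inside the interval. E-boxes (CANNTG) were in 71.9% of the centres (interval 58.5 to 83.0) and in 54.7% of all. GC content moved with this comparison, with medians of 48.5% and 57.0%, and promoters made up fewer of the regions. Outside promoters the E-box shares were 76.6% (interval 62.0 to 87.7) and 68.3%. TTGCNNAA was in 19.3% of centres against 10.6%, and outside promoters in 19.1% against 17.0%. The GRE arm TGTTCT was in 26.3% against 16.6%, and outside promoters in 27.7% against 26.7%. In the 30 E2A centres, E-boxes were in 70.0% (interval 50.6 to 85.3) against 59.3%, CAGCTG in 23.3% (interval 9.93 to 42.3) against 11.8%, and TTGCNNAA in 30.0% (interval 14.7 to 49.4) against 15.1%, and each of these values over all E2A regions lay inside the interval. Outside promoters the 26 E2A centres held E-boxes in 73.1% against 68.5%, CAGCTG in 26.9% (interval 11.6 to 47.8) against 12.4%, and TTGCNNAA in 34.6% (interval 17.2 to 55.7) against 20.9%. The FOX letters TGTTTAC were in 0 of the 30 E2A centres (interval up to 11.6%) against 5.92% of all. The HNF4 letters CAAAGTCCA were in 0 of the 57 GR centres (interval up to 6.27%) and in 1.11% of all. The CAGCTG form is itself an E-box and was counted among them.

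A list of 55 other genes of amino acid breakdown and the urea cycle served as comparison, which holds Sds and Sdsl from a single locus. GR promoter peaks in both replicates were called at 22 of these 55 genes and E2A promoter peaks in both at 5. Within 50 kb, 40 had GR in both replicates, 17 E2A in both and 33 a shared region. A region in all 4 libraries was found at 8 of the 55, namely Hal (histidine breakdown), Cbs and Cth (transsulfuration of methionine to cysteine), Fah (the last step of tyrosine breakdown), Bcat2, Slc25a15 (the mitochondrial ornithine carrier), Glud1 (glutamate dehydrogenase) and Gnmt. The median was 3 GR regions and 1 E2A region per gene, from 0 to 11 and from 0 to 4. Most GR regions were at Ahcy and Gnmt, which belong to the methionine cycle, with 11 each. Otc, the urea cycle enzyme between Cps1 and Ass1, had no GR and no E2A region, and Nags, whose product activates carbamoyl phosphate synthetase, had a GR promoter peak in both replicates and no E2A promoter peak. An E2A promoter peak in at least 1 replicate was called at 4 of the 9 genes, 19 of the 55 and 7.86% of all genes. These counts are a description, since the genes of both lists were picked by name, with earlier results of these data known, and not at random.

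**Figure D5:**
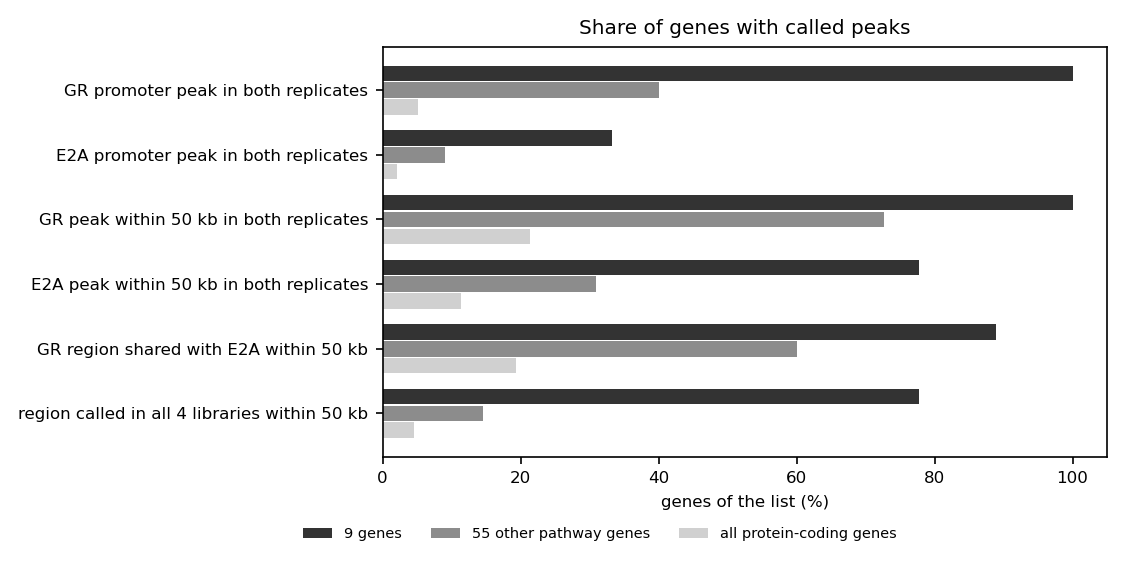
Percent of genes (x axis) with each kind of called peak for the 9 genes, the 55 other genes of the pathways and all protein-coding genes. GR promoter peaks in both replicates are at 9 of 9, 22 of 55 and 5.17%, and regions in all 4 libraries at 7 of 9, 8 of 55 and 4.5%.

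Peaks near markers of hepatocytes were also counted. A further planned marker, Tf, was not found under that symbol and was left out. No marker of another cell type was looked up, so these counts do not describe the cells of the tissue. Of the 5 markers found in the annotation (Alb, Ttr, Apoa1, Serpina1a and Hnf4a), all 5 had a GR promoter peak in both replicates, 1 had an E2A promoter peak in both, and 3 had a region in all 4 libraries. The pattern of the 9 genes, GR at every promoter of the deposited annotation and E2A at fewer, was therefore also that of these markers.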

How the data were processed

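GR and E2A ChIP-Seq peaks of 4 mouse liver libraries were analysed. The authors used BWA-MEM 0.7.13 for alignment to mm10, discarded duplicates with Picard, kept unique pairs, downsampled them to a fixed number per ChIP and called peaks in each library with MACS2 (2.1.0 in the submitters' notes, another version in the paper's methods). The control and threshold are not given in the sources used here. The deposited values are positions, widths and distances in bp, without counts. The paper gives the read pairs kept per ChIP, but the reads behind each peak are unknown. Groups and replicates followed the sample titles (the names of the GR lists number them the other way). Peaks sharing 1 bp were merged within a ChIP (63 GR and 32 E2A regions near the 9 genes) or across libraries (69). Promoters followed the deposited annotation, starts GENCODE M21. Python 3.11.15, pandas 2.3.3, scipy 1.17.1, pysam 0.24.0, matplotlib 3.10.9 and samtools 1.23.1 were used, and scripts were tested on simulated data. Genes and lists were chosen with earlier results of these data known. All 9 genes are named, and the stretches common to 4 libraries were chosen for printing after the peaks were seen, in place of region centres. Alternatives changed window, symbol, width, overlap, replicates and GRE mismatches.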

Additional observations from a re-analysis of the deposited data

How the results depend on the processing

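Of 64 values computed under other settings, 61 kept their direction or stayed close to the reported value. The rule for close was loose, since counts that fell from 9 to 6 or from 7 to 5 passed it. The number of genes with a palindromic GRE in a GR region fell from 9 to 5 when no mismatch was allowed, which follows from the stricter match. The share of GR regions that met E2A moved from 39.7% to 20.6% without E2A replicate 1, the longer of the E2A lists, and the difference in the share of peaks (0.156) turned to -0.049 without GR replicate 1. Leaving out 1 library at a time gave 7 to 8 genes with a shared region and 8 to 9 with a GRE. The share of GR regions meeting E2A was then 20.6% to 47.9%, and the difference in share -0.049 to 0.361. Counts of genes called in both replicates then needed only the 1 library left of that ChIP, so they could not fall. They were 9 to 9 genes for GR and 7 to 8 for E2A within 50 kb. For promoter peaks they were 9 to 9 for GR and 3 to 4 for E2A. A count for 1 ChIP cannot change when a library of the other ChIP is left out, and such values are among the 61. With 10 kb in place of 50 kb, E2A was called in both replicates at 5 genes and shared regions were at 6. Without peaks over 2000 bp, the promoter counts were 6 for GR and 2 for E2A. Requiring both replicates of both ChIPs left 7 genes with a shared region and 28.1% of GR regions meeting E2A. The share over all GR regions was not computed under these other settings. With the replicate number as a replicate block the difference in share stayed 0.156 (0.448 in replicate 1 and -0.137 in replicate 2, exact sign-flip test, p = 1.0). For 2 differences of opposite sign this test can give no other p-value, so it decides nothing. Over 10551 genes the deviations of same-numbered libraries correlated with r = 0.126. The numbers were not treated as pairs in the main test, and this value does not show which libraries share a liver. The lists hold no read counts or heights, so a region missing from 1 library was not called there, and weak binding below the threshold was not measured.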
